A study of Mus musculus with 9 samples.

Results

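The 8 genes described here, Rorb, Rora, Cux1, Btbd3, Neurod1, Neurod2, Tbr1 and Foxp1, encode regulators of layer identity and dendrite form in cortical neurons. They were chosen by name, with earlier results of these data known. Every probe set that the array's platform annotation assigned to 1 of these symbols alone was taken. This gave 22 of the 22690 probe sets on the array for 8 of its 12393 named genes. RNA came from barrel cortex of C57BL/6 mice at postnatal day 5, from which layer IV had been cut out with a laser, and the mice were knockout (KO), heterozygous (HZ) or wild type (WT) for Gap43. Each genotype had 3 mice with 1 Affymetrix array per mouse, so that n = 3 per genotype throughout and 9 arrays in all. No other allele or treatment is named in the labels, which also do not say which part of Gap43 is deleted, in which cells, or how the litters were composed. Values are probe set signals made with the MAS5 algorithm and scaled to 1 common level per array. The number of arrays limits their precision.

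Layer IV of the somatosensory cortex receives whisker input from the thalamus, and its spiny stellate neurons gather around the thalamic axon clusters as rings called barrels, with dendrites that point inwards. The nuclear receptors RORβ and RORα, encoded by Rorb and Rora, are expressed in layer IV neurons and, in mice, take part in barrel formation. CUX1 shapes the dendrites of upper layer neurons, BTBD3 turns layer IV dendrites towards active axons, and NEUROD2 is needed for the barrel map to segregate, whereas NEUROD1 drives neuronal differentiation. TBR1 specifies layer VI neurons, and FOXP1 is a forkhead repressor of cortical projection and striatal neurons. Gap43 encodes a membrane phosphoprotein of growth cones.

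The sequences before the starts of the ROR genes are shown because Rorb had the smallest p of the members against both other genotypes and Rora was lower beside it. RefSeq gave Rorb a pair of starts on the minus strand of chromosome 19, and 1 signal was measured for the gene, so that the values below are not divided by start. Each stretch holds the 250 bases before a start, 5′ to 3′ in the direction of the gene (RefSeq, GRCm38.p6). Capitals mark CCAAT or its reverse complement, the box after which CUX1 was named the CCAAT displacement protein.
Rorb start 1, chr19:19111197-19111446, minus strand: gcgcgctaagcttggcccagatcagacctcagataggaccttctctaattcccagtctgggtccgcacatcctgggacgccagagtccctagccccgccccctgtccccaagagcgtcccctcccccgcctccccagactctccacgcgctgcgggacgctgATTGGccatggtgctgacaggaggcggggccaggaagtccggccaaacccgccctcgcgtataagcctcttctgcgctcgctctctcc
Rorb start 2, chr19:19001118-19001367, minus strand: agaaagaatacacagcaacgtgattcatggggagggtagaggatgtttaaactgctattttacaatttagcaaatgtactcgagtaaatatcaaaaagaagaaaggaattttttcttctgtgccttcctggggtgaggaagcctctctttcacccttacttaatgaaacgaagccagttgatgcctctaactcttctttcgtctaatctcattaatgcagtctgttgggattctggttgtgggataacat
Rora, chr9:68653536-68653785, plus strand: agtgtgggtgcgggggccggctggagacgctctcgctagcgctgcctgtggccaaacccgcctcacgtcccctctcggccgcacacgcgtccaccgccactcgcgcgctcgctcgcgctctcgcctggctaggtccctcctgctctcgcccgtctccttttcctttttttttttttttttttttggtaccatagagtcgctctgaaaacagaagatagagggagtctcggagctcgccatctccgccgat
The box lay 88 bases before Rorb start 1 and was not found in the other 2 stretches. All 8 members matched, with 12 such stretches in all, of which 4 held CCAAT on either strand, against 33.8% of 32851 stretches of the same length over all genes. The nuclear receptor core motif AGGTCA was in 0 of the 12, against 14.0% of all. Of the other motifs searched on both strands, the E-box CAGATG was in 1 of the 12, that of Neurod2 (14.4% of all), the forkhead motif TGTTTAC in 1, that of Cux1 (3.2%), and the T-box motif GGTGTGA in 0 (3.3%). No match of 1 of these 5 motifs in the members overlapped a match of another. A match is a run of letters, not a bound site, and its absence says only that these letters are not in the stretch.

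Gap43, which checks the KO label, had signals of 979.4, 1930 and 1299 on the KO arrays, 5015, 5039 and 4389 on the HZ arrays and 7089, 4746 and 4294 on the WT arrays. The HZ signals lay within the range of the WT signals (log2 difference -0.13, limma adjusted p = 0.915), so that Gap43 does not check the HZ label. Over the 13576 probe sets tested, Gap43 was the 1 called probe set between KO and WT and between KO and HZ, and 0 were called between HZ and WT (limma, Benjamini-Hochberg adjusted p, threshold 0.05). This is 0.00737% of the probe sets tested in each of the first 2 comparisons. At an unadjusted p under 0.05 there were 8.03% between KO and WT, 7.73% between KO and HZ and 6.22% (844 probe sets) between HZ and WT. Arrays of 1 genotype correlated across probe sets at a median r of 0.963 (range 0.958 to 0.978) and arrays of different genotypes also at 0.963 (range 0.949 to 0.973). By X- and Y-linked transcripts, each genotype held 1 male and 2 females. The log2 ratio of 3′ to 5′ signal of control transcripts, which can reflect RNA integrity, was 3.49 to 3.85 in KO, 3.31 to 4.72 in HZ and 3.33 to 3.96 in WT, and the HZ 2 array held the highest. The layer IV marker Rorb passed the filter on dim probe sets, as did 5 of 6 other layer IV transcripts on the array, Scnn1a among them. So did 7 of 8 markers of layers V and VI and the subplate, so that passing does not check which layer was cut.

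Of the members' 22 probe sets, 16 lay among the brightest 60% of the array that were tested, and all 8 genes had at least 1. No probe set of any member passed the adjusted threshold in any comparison. The values that follow are therefore descriptions with their errors, and the brightest probe set stands for a gene unless another is named. Signals of different probe sets cannot be set against each other.

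Rorb, the defining transcription factor gene of layer IV, was lower in KO than in either other genotype. Its signal was 324.5, 356.3 and 301.8 on the KO arrays, against 708.6, 518.2 and 600.9 on the HZ arrays and 540.7, 459.7 and 588.7 on the WT arrays. Every KO array lay below every HZ and every WT array, as it did for 1.96% of the probe sets tested, and HZ and WT overlapped. The means were 327.6 ± 27.4 in KO, 609.2 ± 95.5 in HZ and 529.7 ± 65.2 in WT (SD, n = 3 each). On the log2(signal + 16) scale the KO minus WT difference was -0.66 (95% interval -1.03 to -0.30), with rank 56 by p among the 13576 probe sets and a limma adjusted p of 0.435. The KO minus HZ difference was -0.86 (-1.22 to -0.49), with rank 13 and a limma adjusted p of 0.247, and the HZ minus WT difference was 0.19 (-0.18 to 0.56, adjusted p = 0.839).

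A test over all 3 genotypes at once placed Rorb at rank 22 (limma's moderated F, adjusted p = 0.371), while 7.55% of probe sets had an unadjusted p under 0.05. In 2-sided exact permutation tests p was 0.1 in both comparisons with KO, the smallest that 3 arrays against 3 can give, and 0.4 for HZ against WT. Adjusted over the 24 such tests made on the members, the smallest p was 0.343. The direction was the same in both sexes, at -0.58 between 2 KO and 2 WT females and -0.83 between the males, and at -0.74 and -1.09 for KO against HZ. Without HZ 2, the array with the highest 3′ to 5′ ratio, the KO minus HZ difference was -0.96, and leaving out any other array kept it between -0.92 and -0.74. The order of the genotypes was KO, WT, HZ from low to high, and the neighbours WT and HZ did not differ beyond their spread.

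Rora, which encodes RORα, the nuclear receptor disrupted in the staggerer mouse, was also lowest in KO. Signals were 542.5, 911.5 and 731.4 in KO, against 1071, 913.5 and 856.5 in HZ and 1065, 1097 and 967.3 in WT. The KO and WT arrays did not overlap, as for 5.83% of probe sets lower in KO and 7.83% higher, while the KO and HZ arrays did. The log2 difference was -0.54 (-0.94 to -0.13, limma adjusted p = 0.536) for KO against WT, -0.40 (-0.80 to 0.01, adjusted p = 0.66) for KO against HZ and -0.14 (-0.55 to 0.26, adjusted p = 0.88) for HZ against WT. The second tested probe set of Rora gave -0.60, -0.44 and -0.15 in the same order of comparisons, and the third, at a median signal of 97.2 too dim to be tested, gave 0.25, -0.15 and 0.40. The size rested on KO 1: without it the KO minus WT difference was -0.35 and the KO minus HZ difference -0.20. KO 1 came from a male, and between the males the KO minus WT difference was -0.82, against -0.40 between females.

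**Figure D1:**
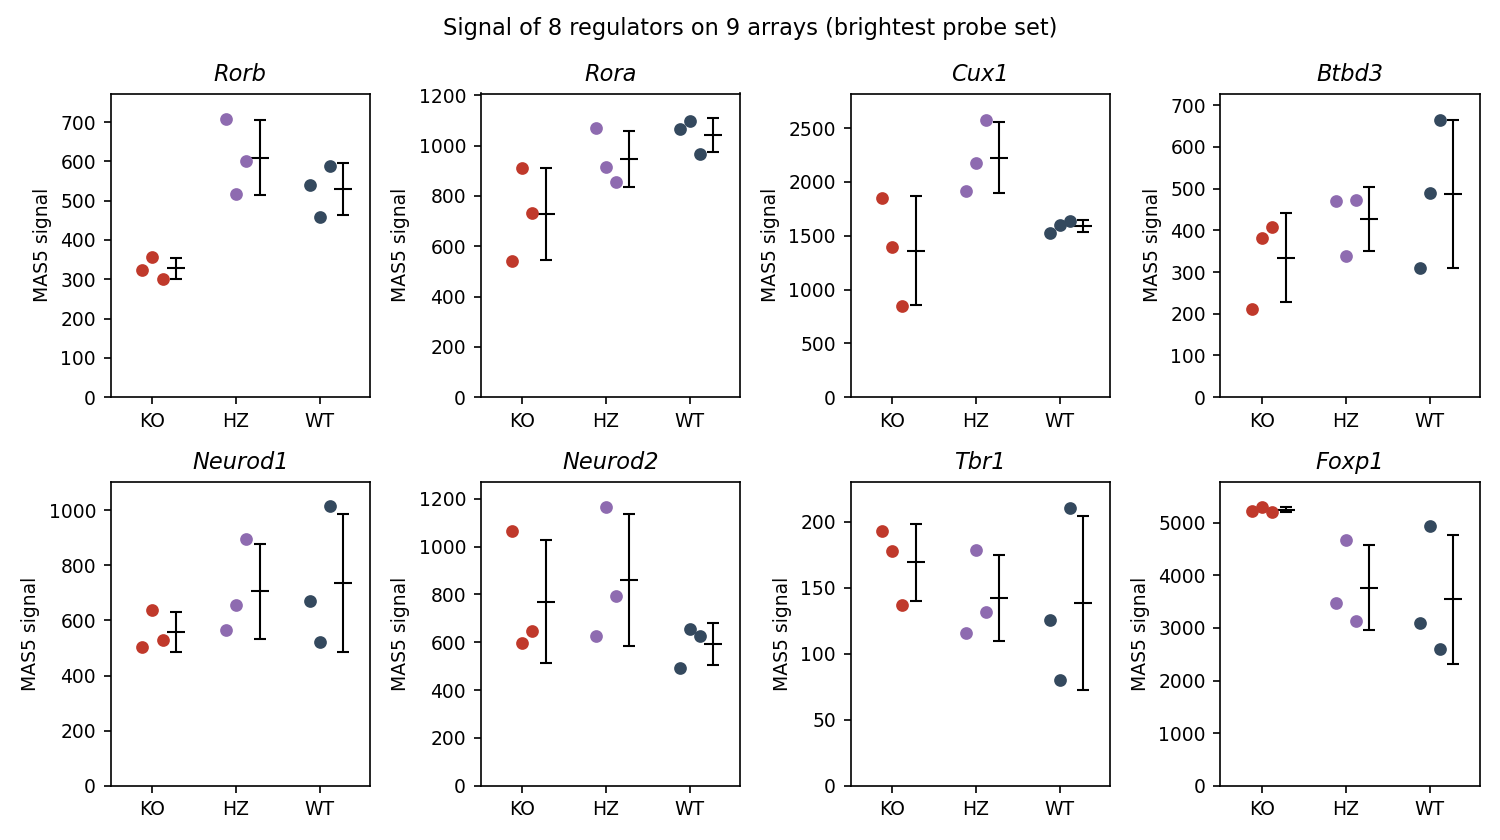
MAS5 signal (linear axis from 0) of the brightest probe set of each of the 8 genes on the 9 arrays, with 1 point per mouse and the mean ± SD (n = 3) as a bar beside the points of KO, HZ and WT. The 3 KO points of Rorb lie between 301.8 and 356.3, below all HZ and WT points, and those of Foxp1 lie between 5210 and 5300, above all HZ and WT points.

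Cux1, a homeodomain factor of upper layer neurons, was highest in HZ rather than in WT. Its brightest probe set read 1846, 1398 and 842.7 in KO, 1919, 2179 and 2575 in HZ and 1525, 1597 and 1636 in WT. The HZ arrays lay above all KO and all WT arrays, and KO and WT overlapped because KO 1 exceeded every WT array. Every HZ array lay above every KO array for 7.35% of the probe sets tested, and above every WT array for 8.51%. The share above both was not counted. The KO arrays were widely spread (SD 502.8 around a mean of 1362), the WT arrays closely (SD 56.1 around 1586). The log2 difference was -0.76 (-1.26 to -0.26, limma adjusted p = 0.45) for KO against HZ and 0.47 (-0.03 to 0.97, adjusted p = 0.79) for HZ against WT. For KO against WT it was -0.29 (-0.79 to 0.21, adjusted p = 0.791), and without KO 3 it was 0.02. Without KO 3 the KO minus HZ difference was -0.46.

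The other Cux1 probe sets did not repeat the HZ peak evenly. Both other tested ones were lower in KO than in HZ, by log2 differences of -0.45 and -0.17, and gave 0.33 and -0.0024 for HZ against WT. The 3 dim ones gave -0.54, -0.14 and 0.39 for KO against HZ. Cux1 yields several transcripts, and the platform annotation does not say which of them each probe set reads.

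Btbd3, the regulator of dendrite orientation, had signals of 211.8, 382.5 and 409.1 in KO, 469.8, 339.5 and 473.1 in HZ and 309.2, 488.5 and 663.7 in WT. All 3 genotypes overlapped. The log2 difference was -0.51 (-1.13 to 0.11, limma adjusted p = 0.7) for KO against WT, -0.38 (-0.99 to 0.24, adjusted p = 0.811) for KO against HZ and -0.13 (-0.75 to 0.48, adjusted p = 0.931) for HZ against WT. The lowest array, KO 1, and the highest, WT 3, were both from males: the KO minus WT difference was -1.58 between these males and 0.02 between females. The difference between the sexes in that contrast, tested after the values were seen, was -1.60 (limma adjusted p = 0.999), with 1 male per genotype. Without KO 1 the KO minus WT difference was -0.23 and the KO minus HZ difference -0.09, and without WT 3 the KO minus WT difference was -0.26.

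Neurod1 and Neurod2 encode basic helix-loop-helix factors of neuronal differentiation. For Neurod1 the brightest probe set read 505.3, 638.7 and 530.3 in KO, 564.8, 655.5 and 896.4 in HZ and 670.5, 522.8 and 1014 in WT. Its log2 difference for KO against WT was -0.34 (-0.86 to 0.17, limma adjusted p = 0.752), and without WT 3 it was -0.09. The second probe set, at 845.2, 711.2 and 499.8 in KO and 574.4, 530.9 and 647.4 in WT, gave 0.20 (adjusted p = 0.834), so that the probe sets of Neurod1 disagreed in direction. The genotypes overlapped on both.

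Neurod2 read 1067, 596.3 and 646.3 in KO, 624.8, 1165 and 793.8 in HZ and 491.2, 656.4 and 627.8 in WT. The high values came from 1 KO and 1 HZ array, and all genotypes overlapped. The log2 difference was 0.33 (-0.21 to 0.88, limma adjusted p = 0.776) for KO against WT and 0.49 (-0.05 to 1.04, adjusted p = 0.79) for HZ against WT. Without KO 1 the KO minus WT difference was 0.08, and without HZ 2 the HZ minus WT difference was 0.26. Between KO and HZ it was -0.16 (-0.71 to 0.39, adjusted p = 0.927) and turned to 0.08 without HZ 2.

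Foxp1, the forkhead gene, was the member highest in KO. Its brightest probe set read 5229, 5300 and 5210 in KO, against 3477, 4679 and 3139 in HZ and 3088, 4933 and 2609 in WT. The KO arrays lay close together above all others, while WT 2 and HZ 2 stood well above the rest of their genotypes. Every KO array lay above every WT array for 7.83% of the probe sets tested, and above every HZ array for 6.67%. The share above both was not counted. The log2 difference was 0.62 (0.17 to 1.07, limma adjusted p = 0.519) for KO against WT, 0.50 (0.05 to 0.95, adjusted p = 0.612) for KO against HZ and 0.12 (-0.33 to 0.57, adjusted p = 0.911) for HZ against WT. Without WT 2 the KO minus WT difference was 0.88 (adjusted p = 0.188). All 7 Foxp1 probe sets were above 0 for KO against WT. The 5 tested ones ran from 0.06 to 0.62, and KO and WT overlapped on the other 4. For KO against HZ the other 4 tested probe sets gave 0.28, 0.08, 0.0093 and -0.09, so that 1 of the 5 had the opposite sign.

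Tbr1, the layer VI factor, had 1 probe set of low signal, at 193.2, 177.7 and 137 in KO, 116, 178.6 and 131.9 in HZ and 125.9, 80.4 and 210.4 in WT. The genotypes overlapped, and the WT arrays alone covered the whole span from 80.4 to 210.4. The log2 difference was 0.33 (-0.29 to 0.96, limma adjusted p = 0.802) for KO against WT and 0.24 (-0.39 to 0.86, adjusted p = 0.899) for KO against HZ. For HZ against WT it was 0.10 (-0.52 to 0.72, adjusted p = 0.951). The KO minus WT difference was 0.04 without WT 2, 0.65 without WT 3 and 0.01 with arrays weighted by their quality, and the KO minus HZ difference was 0.12 without HZ 1.

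**Figure D2:**
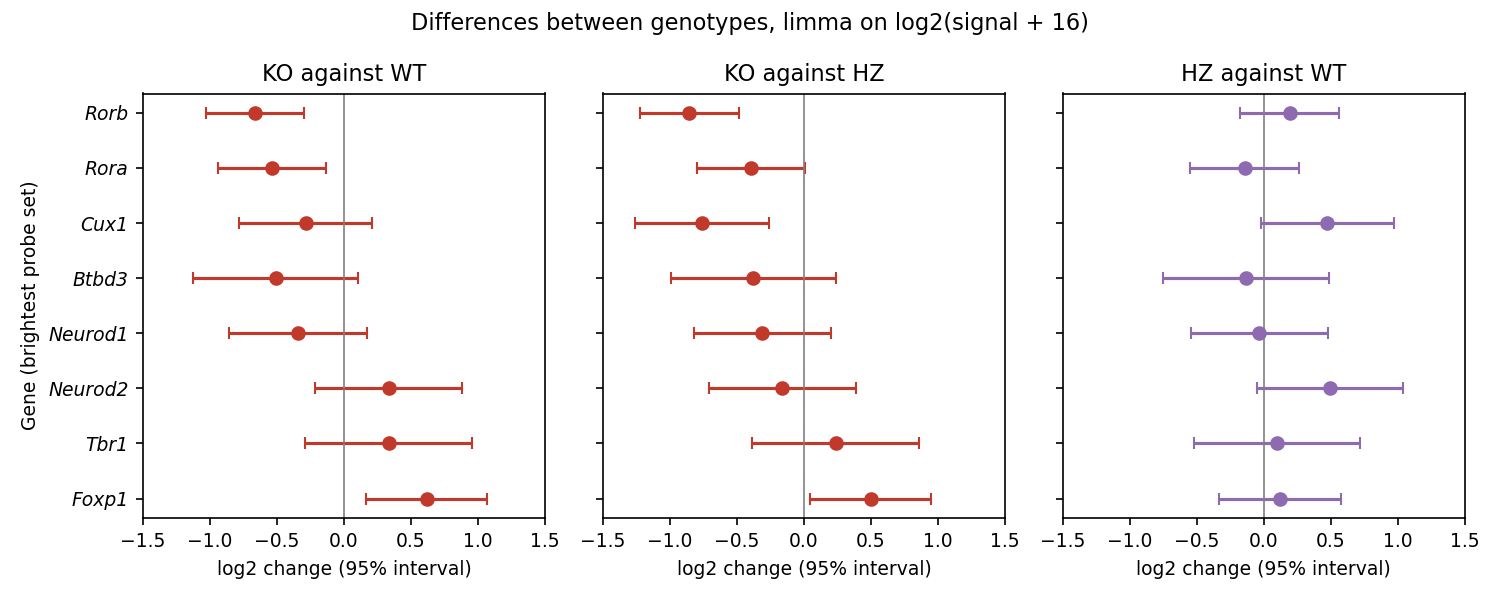
Log2 difference (points) and 95% interval (bars) of the brightest probe set of each gene for KO against WT, KO against HZ and HZ against WT, from limma on log2(signal + 16). The interval of Rorb lies below 0 against both WT (-1.03 to -0.30) and HZ (-1.22 to -0.49), that of Foxp1 above 0 against both, and no interval lies off 0 for HZ against WT.

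Over the 8 genes, 5 were below 0 and 3 above for KO against WT, with a median log2 difference of -0.32, where all 8503 tested genes had a median of 0.02 and 53.6% above 0. For KO against HZ 6 were below 0 and 2 above (median -0.34, all genes -0.03), and for HZ against WT 3 were below and 5 above (median 0.11, all genes 0.04). KO and WT arrays did not overlap for 3 of the 16 tested probe sets, 2 lower and 1 higher in KO, while 13.7% of all probe sets did not overlap (7.83% higher and 5.83% lower in KO). KO and HZ arrays did not overlap for 3 of 16, 2 lower and 1 higher in KO, against 14.0% of all (6.67% higher and 7.35% lower). HZ and WT arrays did not overlap for 1 of 16, higher in HZ, against 12.9% of all (8.51% higher and 4.39% lower). An unadjusted p under 0.05 was reached by 4 of the 16 for KO against WT, 1 higher and 3 lower, where 4.43% of all were higher and 3.59% lower at that p. The lower ones were Rorb and both tested probe sets of Rora. By gene it was 3 of the 8, 1 higher and 2 lower, against 375 higher and 318 lower of all 8503. For KO against HZ that p was reached by 3 of the 16, 1 higher and 2 lower, where 3.96% of all were higher and 3.76% lower. For HZ against WT it was reached by 0, where 4.06% were higher and 2.16% lower. The KO values enter both comparisons with KO, and the WT values both with WT, so that these counts are not independent of each other. The members were also chosen with earlier results of these data known, so that their medians and counts are descriptions only. The members' median for KO against WT was -0.04 when all 22 probe sets were averaged within their genes in place of the brightest.

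**Figure D3:**
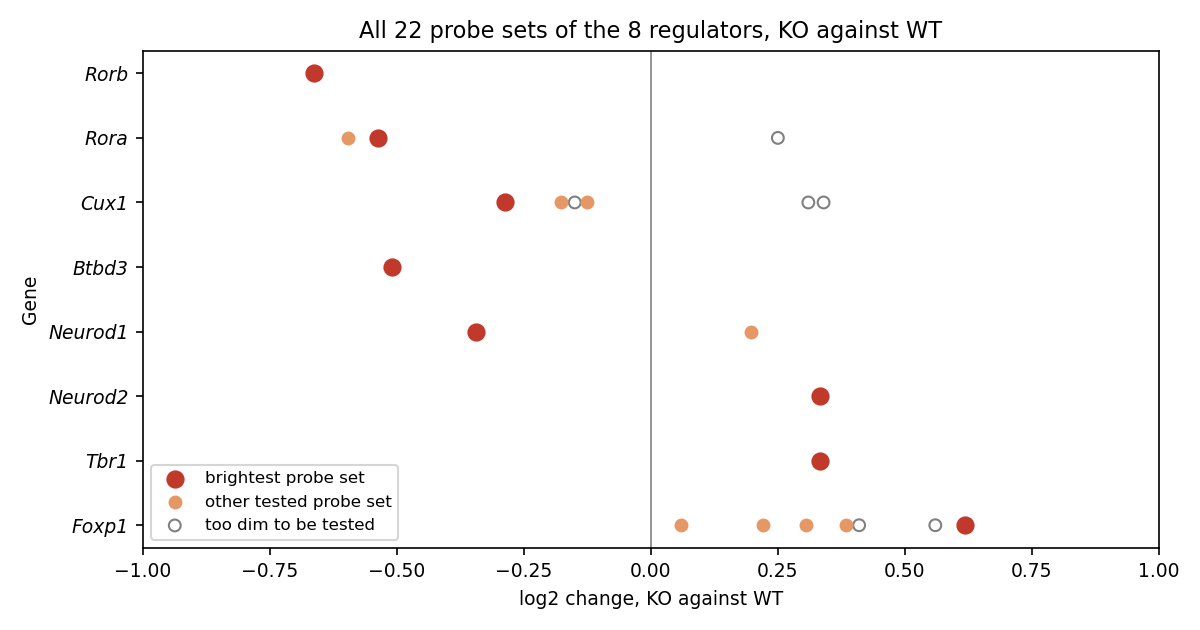
Log2 difference between KO and WT for all 22 probe sets, by gene, with the brightest probe set of a gene as a large filled point, other tested ones as small filled points and those too dim to be tested as open points. The 7 points of Foxp1 lie above 0, the tested ones of Rora and Cux1 below 0, and the pair of Neurod1 on either side.

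Lists of other regulators gave no called gene either. Of the 9 tested layer IV and upper layer regulators, 0 passed the adjusted test in either direction in any comparison, 7 were above 0 for KO against WT, and their median log2 difference was 0.09 (range -0.01 to 0.31). Among them Cux2, the paralogue of Cux1, stood at 0.09 (limma adjusted p = 0.957), and those of smallest p were Nfib, a nuclear factor I gene, at 0.24 (adjusted p = 0.756) and Mef2c, a MADS box activator, at 0.13 (adjusted p = 0.788). Below 0 were Nfix at -0.009 and Bcl11a at -0.0039. Of 8 tested deep layer and subplate regulators 0 passed, 5 were above 0 and the median was 0.13. They included Nr2f2, an orphan nuclear receptor gene, at 0.85 (adjusted p = 0.622), Nr4a2, a subplate nuclear receptor gene, at 0.37, Zfpm2 at -0.34 and Tle4, a layer VI corepressor, at -0.29.

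Of 5 tested regulators of neuronal differentiation and progenitors 0 passed and 4 were above 0 for KO against WT (median 0.26), with Neurod6, the paralogue of Neurod1 and Neurod2, at 0.63 (limma adjusted p = 0.519), Zbtb18 at 0.26 and Myt1l at -0.09. Neurod6 read 1867, 3178 and 2801 in KO, 1917, 1622 and 1543 in HZ and 2123, 1338 and 1569 in WT, and KO 1 overlapped with WT 1. Eomes, the paralogue of Tbr1, was at 0.35 (adjusted p = 0.720). All 3 paralogues with a tested probe set, Neurod6, Eomes and Cux2, were above 0 for KO against WT (median 0.35), as were 53.6% of all tested genes. For KO against HZ 2 of these 3 were below 0 (median -0.075). Each is also counted in the lists above.

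Of 5 tested transcripts enriched in layer IV other than Rorb, 0 passed, and 2 were above 0 and 3 below for KO against WT (median -0.02). For KO against HZ all 5 were below 0 (median -0.22), and for HZ against WT all 5 were above 0 (median 0.18), again with 0 passed. The same HZ arrays enter both comparisons. Of all 8503 tested genes, 4667 were below 0 for KO against HZ and 4818 above 0 for HZ against WT. Pcdh20, a protocadherin gene, read 346.4, 528.3 and 332.6 in KO, 703.8, 834.9 and 856.3 in HZ and 744.2, 622.6 and 876.4 in WT. Like those of Rorb, its 3 KO arrays lay below all others, with a log2 difference of -0.89 for KO against WT (limma adjusted p = 0.361) and -0.99 for KO against HZ (adjusted p = 0.25). Plxnd1, a plexin, was at -0.12 and Scnn1a, a sodium channel subunit of layer IV cells, at -0.02, whereas Kcnip2, a potassium channel partner, was at 0.58 (adjusted p = 0.537) and Cux2 at 0.09. Kcnip2 stood at 0.65 for HZ against WT (adjusted p = 0.789) and at -0.08 for KO against HZ.

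Markers of other cells that the dissected tissue could hold were summed over each list. In the dissected layer, fewer cells of a type and less RNA per cell cannot be told apart. The summed signal of 11 astrocyte markers was 10140 to 14773 in KO, 14188 to 14823 in HZ and 14831 to 19324 in WT. Of the 9 tested ones, 8 were below 0 for KO against WT (median -0.38), where 3946 of all 8503 tested genes were. At an unadjusted p under 0.05, 5 of them were lower, where 3.59% of all probe sets were, and 0 passed the adjusted threshold. Aqp4 stood at -0.03 and Gfap at 0.11. The KO and WT sums did not overlap. Gja1, which encodes the astrocyte gap junction protein connexin 43, read 2298, 2527 and 1731 in KO, 3948, 4380 and 3665 in HZ and 3819, 4592 and 5081 in WT. Its KO arrays, like those of Rorb, lay below all others, with a log2 difference of -1.04 for KO against WT (limma adjusted p = 0.114) and -0.88 for KO against HZ (adjusted p = 0.205). The summed signal of 7 thalamic neuron markers was 968 to 1165 in KO, 1210 to 1910 in HZ and 1010 to 1621 in WT, with 4 of the 7, Tcf7l2, Lef1, Gbx2 and Tnnt1, too dim to be tested. Of the tested ones only Calb2 was clearly lower in KO, with means of 372.1 in KO, 904.9 in HZ and 732.6 in WT. Prkcd (418.7, 420.9 and 401.7) and Zfhx3 (126.8, 133.9 and 127.2) were nearly level in the same order. The summed signal of 8 markers of layers V and VI and of the subplate was 1294 to 2978 in KO, 1529 to 1884 in HZ and 1569 to 2624 in WT, and that of 7 markers of layers II and III was 5261 to 5650, 5033 to 5746 and 5399 to 6360 in the same genotypes. The 11 pan-neuronal markers summed to 22823 to 32905 in KO, 27686 to 32084 in HZ and 28681 to 32070 in WT. Single members of that list went both ways for KO against WT, with 5 above 0 and 6 below. The 4 striatal, 9 interneuron, 9 oligodendrocyte, 9 microglia and 10 endothelial and mural lists overlapped in their sums between KO and WT. All 4 tested microglia markers were nevertheless below 0 for KO against WT (median -0.37) and for KO against HZ (median -0.26), and 0 passed. No marker was listed at 0. The size for Rora rested on the KO 1 array, and that for Btbd3 against WT on KO 1 and WT 3 alike. KO 1 had the lowest pan-neuronal sum of all 9 arrays (22823, the next lowest being 27686). It also had the lowest sums for layers V and VI and the subplate (1294), interneurons (3774), oligodendrocytes (3881), microglia (1403) and thalamic neurons (968). Such sums of linear signal follow their brightest markers. Of the pan-neuronal ones, Stmn2 (10190), Snap25 (3005) and Nefl (680.4) were lowest on KO 1, whereas Tubb3 (4134) was highest there. The astrocyte and microglia sums, like Rorb and Rora, had lower means in KO than in WT (12025 against 17358, and 1584 against 2267). Array by array they followed Rorb only in part. The astrocyte sums of KO 1, KO 2 and KO 3 (11163, 14773 and 10140) had the order of their Rorb signals (324.5, 356.3 and 301.8). Those of HZ 1, HZ 2 and HZ 3 (14188, 14619 and 14823) did not (Rorb 708.6, 518.2 and 600.9). WT 2 held the highest astrocyte and microglia sums (19324 and 3487) but the lowest Rorb signal of the WT arrays (459.7). The microglia sums of WT 1 and WT 3 (1710 and 1603) lay within the KO range of 1403 to 1767. The part of these sums in the members' values was not tested.

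The tested genes most like Rorb over the 9 arrays, by Pearson correlation of log2(signal + 16), were Vcam1 (r = 0.959), Acadl (0.952), Col9a1 (0.933), Tfrc (0.932) and Dio2 (0.916), out of 8503. They encode a cell adhesion molecule, a mitochondrial acyl-CoA dehydrogenase, a collagen chain, the transferrin receptor and the deiodinase that activates thyroid hormone. Spearman's rho was 0.883, 0.95, 0.817, 0.95 and 0.917 in that order. All 9 points share the genotypes and the array's scaling. Within genotypes, on deviations from the genotype means, r was 0.752, 0.902, 0.604, 0.876 and 0.61. These genes were picked for the highest r on the same 9 arrays, which favours high rho and high r within genotypes. No r within genotypes is given for other genes as a background. The values therefore do not test whether the likeness to Rorb holds apart from genotype. Among the members r with Rorb was 0.69 for Rora, 0.644 for Cux1, 0.546 for Neurod1, 0.515 for Btbd3, -0.171 for Neurod2, -0.215 for Tbr1 and -0.801 for Foxp1, which stood at rank 8439 of 8503. These are descriptions of 9 arrays.

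**Figure D4:**
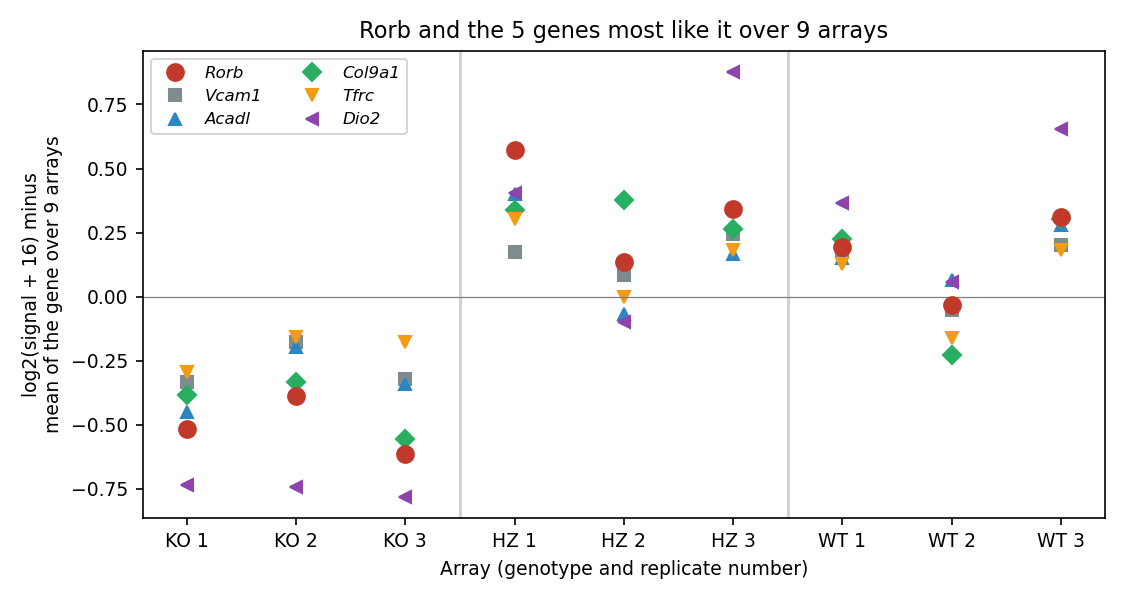
Log2(signal + 16) minus each gene's mean over the 9 arrays for Rorb and the 5 genes most like it, by array. All 6 genes lie below their mean on the 3 KO arrays, and Dio2 has the widest span, with KO means of 584.3 against 1364 in HZ and 1300 in WT.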

How the data were processed

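Linear probe set intensities were deposited. The authors computed them with MAS5, and the submitters' processing notes name Affymetrix Expression Console without a version. With 2% trimmed from either end, each array had a mean of 500, so scaling to a common level had been done, and none was added. RNA was amplified in 2 cycles, per the labels' protocols, from 9 separate mice. No detection calls were used here.

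The fit used log2(signal + 16) of the deposited intensities, which understates fold changes of dim probe sets. Without the 64 controls, the brightest 60% by mean log2 value were tested: 13576 probe sets of 8503 genes, with a lowest mean signal of 118. Genotype was the only term in limma 3.58.1 (R 4.3.3, eBayes with an intensity trend, 6 residual and 6.94 prior degrees of freedom), over all 9 arrays. Tests were 2-sided, adjusted by Benjamini-Hochberg over every probe set kept, with a threshold of 0.05. The procedure was run on simulated data with independent normal noise for each probe set. Such data hold no effects shared by the probe sets of an array, so the run does not cover them. Alternatives changed the pseudocount, filter, normalization, trend, weights, terms and arrays.

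Named were the 8 members, Gap43, the 2 tested genes of smallest p in each direction per regulator list for KO against WT, the 5 genes most like Rorb, and Gja1 and the 3′/5′ ratio where they move with a result. Scnn1a, the thalamic markers, Aqp4, Gfap and single pan-neuronal markers are named besides, chosen after their values were seen. The members and lists were chosen with earlier results of these data known. The platform annotation gave 1 gene symbol to 20380 probe sets, several to 691 and none to 1555. Promoter sequences are from RefSeq (GRCm38.p6).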

Additional observations from a re-analysis of the deposited data

How the results depend on the processing

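No member passed the adjusted threshold under any alternative run. Of 501 values of single members, 14 turned sign and 0 passed. Rorb stayed below 0 in all settings, between -0.76 and -0.59 for KO against WT (adjusted p 0.131 to 0.799) and between -0.96 and -0.74 for KO against HZ (0.075 to 0.502). The number of probe sets called over the array, KO against WT 1, KO against HZ 1, any genotype 1 and HZ against WT 0, was 0, 0, 0 and 0 with no filter on dim probe sets and also without an intensity trend. Array weights gave 5 for KO against WT, 3 between HZ and WT and 5 for any genotype. Quantile normalization and setting arrays to 1 median each gave 0 for KO against HZ, and fitting only 2 genotypes gave 0 in either comparison with KO. The 3′/5′ ratio as a term gave 3 for KO against HZ and 0 for any genotype. With the replicate number as a block, 2 were called for KO against HZ, 1 for KO against WT, 0 for any genotype and 0 between HZ and WT. The numbers share only a label: same-numbered arrays of different genotype had deviations correlated between -0.255 and 0.111, 1 of 9 pairs over 0.1, and 3 of 9 arrays correlated best with their own number. Leaving out 1 array at a time gave 0 to 2 in each of the 3 pairs of genotypes and 0 to 3 for any genotype. Of the 24 exact permutation tests on the members, 4 to 7 were at the smallest p, with the lowest number without KO 3. The members' median then ran from -0.391 to -0.146 for KO against WT and from -0.002 to 0.245 for HZ against WT, and averaging all probe sets of a gene gave -0.044 for KO against WT. Signs turned for Tbr1, HZ against WT, under quantile normalization (-0.032) and array weights (-0.279), and for Neurod1, HZ against WT, with the 3′/5′ term (0.015). On leaving out arrays they turned for Cux1, KO against WT (-0.539 to 0.019), Neurod2, KO against HZ (-0.416 to 0.077), and, for HZ against WT, Btbd3 (-0.416 to 0.115), Neurod1 (-0.247 to 0.221), Tbr1 (-0.201 to 0.415) and Foxp1 (-0.073 to 0.385). The cause was not tested. Low signal over background limits Tbr1 and the 6 dim probe sets.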
